A study of Mus musculus with 12 samples.

Results

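The 9 genes described here encode mitochondrial enzymes that break down valine and isoleucine, with a ketone body thiolase and a leucine step beside them: Acad8, Echs1, Hibch, Hibadh, Aldh6a1, Acadsb, Hsd17b10, Acat1 and Auh. The rule that defines them uses gene names alone, though the set was drawn up with earlier results of these data known. Each was read from the probe set whose annotation gives that 1 symbol and, where there were several, from the one with the highest mean over the 12 arrays. All 9 were found among the 19934 genes tested. Total RNA of whole kidneys from female C57BL/6 mice was hybridised to 12 arrays, 1 for each mouse. All mice had eaten a high protein diet for 2 months. Mut-/- mice lacked Mut (current symbol Mmut), the gene of methylmalonyl-CoA mutase, and carried the transgene TgINS-Alb-Mut, which by its name puts Mut under the albumin promoter, active in liver. Mut+/- mice were heterozygotes and Mut+/+ mice were wild type, and their labels name no transgene, so the effects of the transgene and of losing Mut in Mut-/- kidneys cannot be told apart. Each group had 4 mice. The sources used here do not give their age, and all 3 groups share the diet and the sex.

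Branched-chain amino acids lose their amino group, are turned into acyl-CoA esters by a shared dehydrogenase complex, and then follow separate routes inside the mitochondrion. On the valine route Acad8 (isobutyryl-CoA dehydrogenase) is followed by the enoyl-CoA hydratase Echs1, the hydrolase Hibch, the dehydrogenase Hibadh and the methylmalonate semialdehyde dehydrogenase Aldh6a1, which yields propionyl-CoA. On the isoleucine route Acadsb (short/branched-chain acyl-CoA dehydrogenase) is followed by Echs1, Hsd17b10 and the thiolase Acat1, which yields propionyl-CoA and acetyl-CoA. Propionyl-CoA becomes methylmalonyl-CoA, the substrate of the enzyme lost in these mutants. Acat1 also makes and uses acetoacetyl-CoA in ketone body metabolism, Auh hydrates 3-methylglutaconyl-CoA on the leucine route and binds RNA, and Hsd17b10 is also a subunit of mitochondrial RNase P.

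Array medians lay between 7.17 and 7.23 on the log2 scale, and correlations between arrays across probe sets between 0.982 and 0.995. Mmut fitted the labels, at 8.47, 8.33, 8.20 and 8.42 in Mut-/- kidneys, 9.93, 9.90, 9.87 and 9.97 in Mut+/- kidneys and 10.47, 10.50, 10.56 and 10.60 in Mut+/+ kidneys. The proximal tubule genes Slc34a1 and Lrp2 were bright on every array, at 13.17 to 13.43 and 12.23 to 12.94. Mut-/- replicate 3 stood apart: all 6 markers of adrenal cortex were highest on that array. Cyp11b1 reached 12.65 there, against 5.40 to 6.58 on the other 11 arrays, Star 11.99 against 6.64 to 6.91, and Cyp11b2, with the smallest gap, 8.70 against 6.36 to 6.67. Results on the called enzymes are therefore given without that array too.

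**Figure D1:**
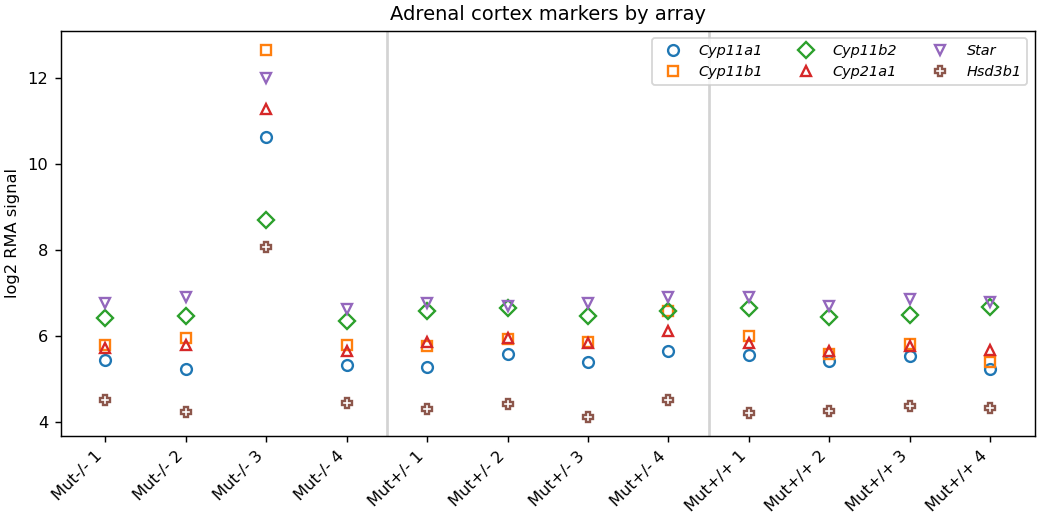
Adrenal cortex markers on each array. The y axis is the log2 RMA signal, each symbol is 1 gene, and grey lines part the genotypes. All 6 markers are high on Mut-/- replicate 3, with Cyp11b1 at 12.65, and low on the other 11 arrays.

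In Mut-/- kidneys set against Mut+/+ kidneys, Auh, Acadsb and Hibadh were lower and the other 6 enzymes did not pass the test. The changes were small, 1.29-fold for Auh, 1.19-fold for Acadsb and 1.17-fold for Hibadh. At an adjusted p under 0.05 in limma, 3 of the 9 fell and 0 rose, where 6.69% of all genes fell and 2.96% rose. Without Mut-/- replicate 3 the count was also 3. The median log2 difference of the 9 was -0.048, beside 0.0044 over all genes, and all 9 differences were below 0. In Mut+/- kidneys set against the same Mut+/+ kidneys the median was -0.073 beside 0.0065 over all genes, with 8 of the 9 below 0. In Mut-/- against Mut+/- kidneys it was -0.056 beside -0.0075, with 6 of the 9 below 0. All Mut-/- arrays lay below all Mut+/+ arrays for the same 3 enzymes, against 9.4% of all genes. At an unadjusted p under 0.05 in limma the count was 4 of the 9, with Hibch added, beside 4867 of all 19934 genes. In bulk tissue, fewer cells of a type and less RNA in each cell cannot be told apart, and the separate mice are the replicates.

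**Figure D2:**
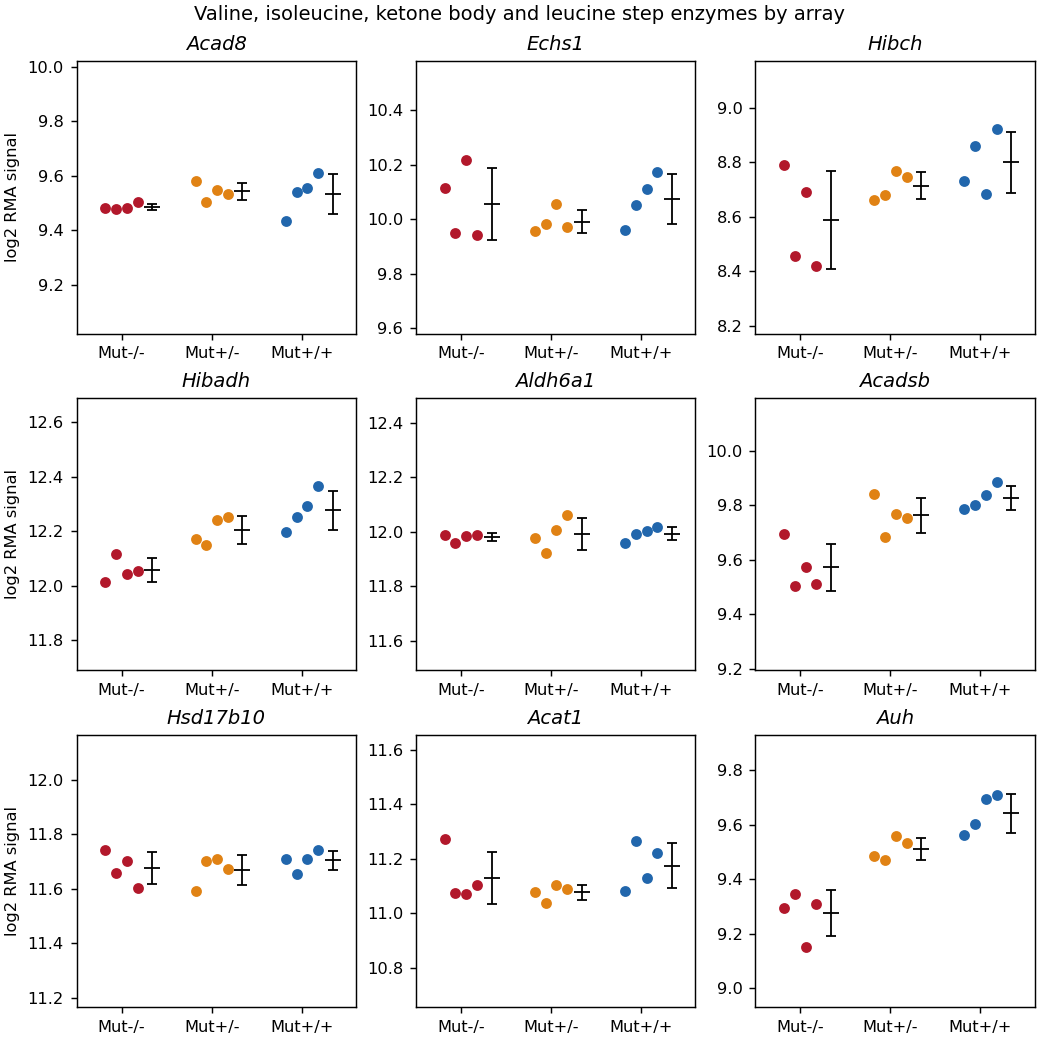
Levels of the 9 enzymes on each array. The y axis of every panel spans 1 log2 unit of RMA signal, points are arrays in replicate order, and the bar beside them is the group mean with its SD (n = 4). Auh, Acadsb and Hibadh are lower in Mut-/- than in Mut+/+ kidneys with no overlap, while the points of Aldh6a1 and Hsd17b10 overlap.

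Auh had the largest difference of the 9. Its log2 levels were 9.29, 9.35, 9.15 and 9.31 in Mut-/- kidneys, 9.49, 9.47, 9.56 and 9.53 in Mut+/- kidneys and 9.56, 9.60, 9.69 and 9.71 in Mut+/+ kidneys. The Mut-/- arrays lay below all others, and the heterozygotes lay between, with the highest of them within rounding of the lowest wild type. The means were 9.28 ± 0.08 in Mut-/- kidneys, 9.51 ± 0.04 in Mut+/- kidneys and 9.64 ± 0.07 in Mut+/+ kidneys (SD, n = 4 each). The log2 difference from wild type was -0.37 (SE 0.05, 95% interval -0.48 to -0.25, adjusted p = 0.0013). Without Mut-/- replicate 3, the lowest array, it was -0.33 (adjusted p = 0.00273). The two-sided exact permutation p was 0.0286, and no smaller value is possible with 4 arrays in each group.

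On the isoleucine route, the first enzyme fell and the later ones did not pass. Acadsb, which removes hydrogen from 2-methylbutyryl-CoA, had log2 levels of 9.70, 9.51, 9.58 and 9.51 in Mut-/- kidneys, against 9.79, 9.80, 9.84 and 9.88 in Mut+/+ kidneys. The highest Mut-/- array stayed below the lowest wild type. The difference was -0.26 (SE 0.05, 95% interval -0.37 to -0.14, adjusted p = 0.0104), with an exact permutation p of 0.0286. It was -0.26 without Mut-/- replicate 3 (adjusted p = 0.0201). Heterozygotes, at 9.84, 9.69, 9.77 and 9.76, overlapped both other groups. Hsd17b10, the 2-methyl-3-hydroxybutyryl-CoA dehydrogenase, lay at 11.74, 11.66, 11.70 and 11.60 in Mut-/- kidneys and 11.71, 11.65, 11.71 and 11.74 in Mut+/+ kidneys. Its ratio to wild type was 0.981 (95% interval 0.914 to 1.05, adjusted p = 0.781), so a fall as large as that of Acadsb lies outside the interval.

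Acat1, the thiolase shared with ketone body metabolism, had log2 levels of 11.27, 11.08, 11.07 and 11.10 in Mut-/- kidneys, 11.08, 11.04, 11.10 and 11.09 in Mut+/- kidneys and 11.08, 11.26, 11.13 and 11.22 in Mut+/+ kidneys. The 3 groups overlapped, and Mut-/- replicate 1 was the highest array of all. The ratio of Mut-/- to Mut+/+ was 0.970 (95% interval 0.890 to 1.06, adjusted p = 0.695).

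On the valine route, the hydrolase and the dehydrogenase that follows it had the lowest ratios. Hibadh, which oxidises free 3-hydroxyisobutyrate, lay at 12.01, 12.12, 12.04 and 12.05 in Mut-/- kidneys, 12.17, 12.15, 12.24 and 12.25 in Mut+/- kidneys and 12.20, 12.25, 12.29 and 12.37 in Mut+/+ kidneys. All Mut-/- arrays were below all others, and the other genotypes overlapped. The difference from wild type was -0.22 (SE 0.05, 95% interval -0.33 to -0.11, adjusted p = 0.0143), with an exact permutation p of 0.0286. It was -0.22 without Mut-/- replicate 3 (adjusted p = 0.0303). Its call ended without Mut+/+ replicate 4, at -0.19 (adjusted p = 0.0504). The second probe set annotated to Hibadh alone lay near the low end of the array, at 4.22 to 4.85 in Mut-/- kidneys and 4.11 to 4.25 in Mut+/+ kidneys, and its difference was 0.25 (SE 0.12, adjusted p = 0.224). With the mean of both probe sets Hibadh had a difference of 0.013 (adjusted p = 0.94). A further 2 probe sets annotated to both Hibadh and Top2a were not used.

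Hibch, which frees 3-hydroxyisobutyrate from its CoA ester, was the most variable of the 9 among mutants. Its log2 levels were 8.79, 8.46, 8.69 and 8.42 in Mut-/- kidneys, 8.66, 8.68, 8.77 and 8.75 in Mut+/- kidneys and 8.73, 8.86, 8.68 and 8.92 in Mut+/+ kidneys. Replicates 2 and 4 of Mut-/- lay below every other array, while replicates 1 and 3 lay within the range of the controls. The difference from wild type was -0.21 (SE 0.08, adjusted p = 0.129), about as large as that of Hibadh and short of the threshold. It passed without Mut-/- replicate 1, at -0.28 (adjusted p = 0.039), and not without Mut-/- replicate 3, at -0.24 (adjusted p = 0.111).

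The other 3 enzymes of the valine route did not pass. Acad8, at its start, lay at 9.48, 9.48, 9.48 and 9.50 in Mut-/- kidneys and 9.43, 9.54, 9.55 and 9.61 in Mut+/+ kidneys (ratio 0.968, 95% interval 0.903 to 1.04, adjusted p = 0.584). Echs1, which serves the isoleucine route too, lay at 10.11, 9.95, 10.22 and 9.94 in Mut-/- kidneys and 9.96, 10.05, 10.11 and 10.17 in Mut+/+ kidneys (ratio 0.988, 95% interval 0.893 to 1.09, adjusted p = 0.907). Its highest array was Mut-/- replicate 3, and without that array its log2 difference was -0.072 in place of -0.018 (adjusted p = 0.578). Aldh6a1, the last step, lay within narrow ranges, at 11.96 to 11.99 in Mut-/- kidneys, 11.92 to 12.06 in Mut+/- kidneys and 11.96 to 12.02 in Mut+/+ kidneys. Its ratio was 0.991 (95% interval 0.929 to 1.06, adjusted p = 0.896), an interval that does not reach the ratio of Auh, Acadsb or Hibadh.

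**Figure D3:**
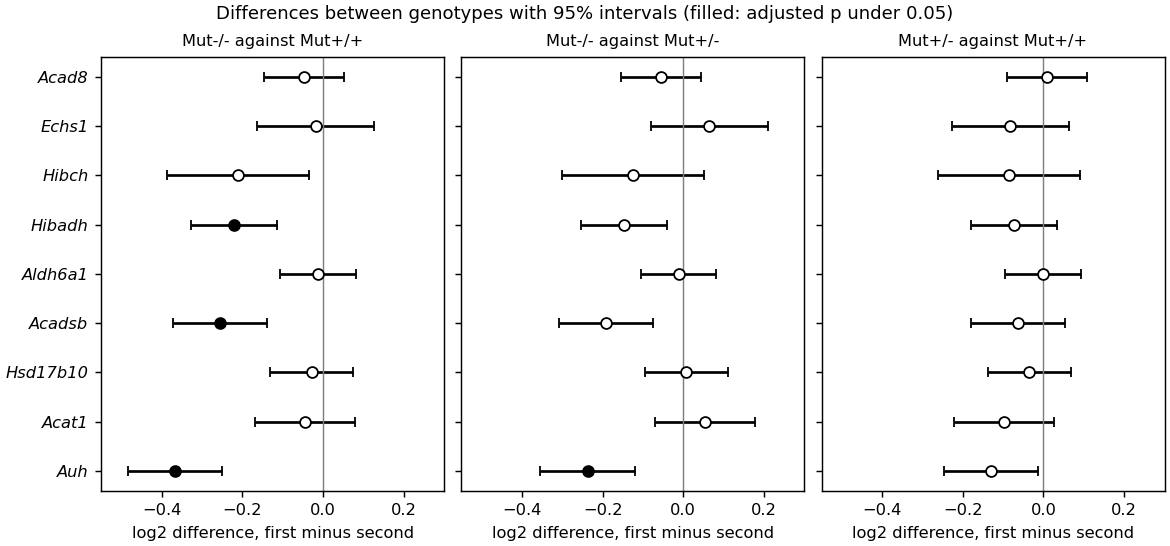
Log2 differences of the 9 enzymes in 3 comparisons, with 95% intervals from the limma fit. Filled points passed at an adjusted p under 0.05: Auh, Acadsb and Hibadh in Mut-/- against Mut+/+, and Auh in Mut-/- against Mut+/-.

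**Figure D4:**
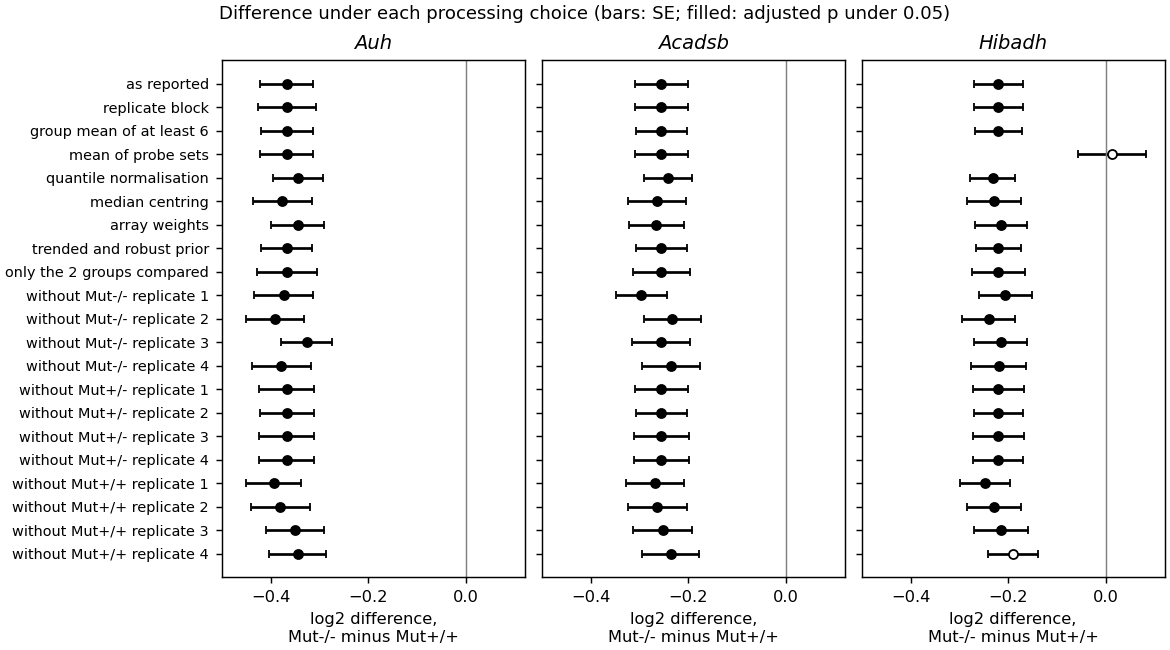
Log2 difference, Mut-/- minus Mut+/+, of the 3 enzymes that fell, as reported and under 20 other processing choices, with SE bars. Filled points have an adjusted p under 0.05: all for Auh and Acadsb, and all but the mean of probe sets and the fit without Mut+/+ replicate 4 for Hibadh.

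Consecutive steps were then compared within arrays, as the log2 difference between an enzyme and the next on its route, over 7 pairs listed after the values had been seen. The difference itself carries the brightness of the probes, so its shift between genotypes is the measure. The pair Hibadh and Aldh6a1 differed by 0.08 ± 0.06 in Mut-/- kidneys and 0.28 ± 0.05 in Mut+/+ kidneys (SD, n = 4 each), a shift of -0.21. Without Mut-/- replicate 3 that shift was -0.20. The pair Acadsb and Echs1 differed by -0.48 ± 0.11 in Mut-/- kidneys and -0.25 ± 0.05 in Mut+/+ kidneys, a shift of -0.24. Leaving out the same array made this shift -0.18. In both pairs the groups were apart, with a two-sided exact permutation p of 0.0286 each, the smallest possible with 4 arrays in each group. The adjusted p of this test over the 7 pairs was 0.1 for both. These pairs alone could not pass the correction at any size of shift. It therefore does not decide whether change along a route was unequal. Hibadh (-0.22) and Acadsb (-0.26) had already been called against Mut+/+, while Aldh6a1 (-0.013) and Echs1 (-0.018) differed little. The shifts of both pairs thus largely restate those single-gene differences. The other 5 pairs shifted by -0.030 to 0.19 with overlapping groups (exact permutation p from 0.0571 to 0.943).

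Heterozygotes gave the second control. In Mut-/- against Mut+/- kidneys 1 of the 9 fell, Auh, and 0 rose, where 1.46% of all genes fell and 1.07% rose. The difference of Auh was -0.24 (SE 0.05, adjusted p = 0.0364). This call was lost when any of 7 arrays was left out, among them Mut-/- replicate 3 (-0.20, adjusted p = 0.0787) and each Mut+/- array (adjusted p up to 0.105), and in the fit blocked by replicate number (adjusted p = 0.0743). Acadsb had a difference of -0.19 (adjusted p = 0.0851) and Hibadh of -0.15 (adjusted p = 0.152). All Mut-/- arrays lay below all Mut+/- arrays for Auh, Hibadh and Acad8, against 5.65% of all genes. For Acad8 the values were 9.48 to 9.50 in Mut-/- kidneys and 9.51 to 9.58 in Mut+/- kidneys, a difference of -0.056 (adjusted p = 0.646).

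In Mut+/- against Mut+/+ kidneys 0 of the 9 passed with limma, where 0.0702% of all genes fell and 0.0652% rose. At an unadjusted p under 0.05 in limma the count was 1 of the 9, Auh, beside 2255 of all 19934 genes. The differences of the 9 ran from -0.13 for Auh (SE 0.05, adjusted p = 0.385) to 0.0085 for Acad8. Auh was the member with all Mut+/- arrays below all Mut+/+ arrays, against 5.26% of all genes. The comparisons share control or mutant arrays, so their differences are not independent of each other.

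The windows of 250 bases before the start of the genes were read next, since Auh, Acadsb and Hibadh were lower together. RefSeq windows on build GRCm38.p6 were held for 8 of the 9 genes, with 2 for Aldh6a1 and none for Acat1. The 3 that fell and, beside them, Echs1, which did not pass and serves both routes, are printed 5′ to 3′ on the gene's strand, with matches to the searched motifs in capitals. They lie at chr13:52929678-52929927 on the minus strand for Auh, chr7:131410351-131410600 on the plus strand for Acadsb, chr6:52640301-52640550 on the minus strand for Hibadh and chr7:140116422-140116671 on the minus strand for Echs1.
Auh: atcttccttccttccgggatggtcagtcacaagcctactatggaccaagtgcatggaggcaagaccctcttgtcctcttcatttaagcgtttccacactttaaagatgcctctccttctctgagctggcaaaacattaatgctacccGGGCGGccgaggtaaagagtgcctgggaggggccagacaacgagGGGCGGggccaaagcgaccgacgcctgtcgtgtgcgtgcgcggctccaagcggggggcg
Acadsb: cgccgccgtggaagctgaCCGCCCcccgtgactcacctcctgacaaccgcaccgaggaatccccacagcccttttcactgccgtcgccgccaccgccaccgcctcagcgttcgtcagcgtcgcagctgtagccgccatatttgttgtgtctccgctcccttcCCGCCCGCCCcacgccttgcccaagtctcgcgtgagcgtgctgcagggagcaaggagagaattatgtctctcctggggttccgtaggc
Hibadh: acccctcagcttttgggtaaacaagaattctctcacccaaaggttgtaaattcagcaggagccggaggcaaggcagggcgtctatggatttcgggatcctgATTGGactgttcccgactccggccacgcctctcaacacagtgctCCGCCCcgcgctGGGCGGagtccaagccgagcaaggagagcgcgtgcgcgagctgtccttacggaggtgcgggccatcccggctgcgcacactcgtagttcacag
Echs1: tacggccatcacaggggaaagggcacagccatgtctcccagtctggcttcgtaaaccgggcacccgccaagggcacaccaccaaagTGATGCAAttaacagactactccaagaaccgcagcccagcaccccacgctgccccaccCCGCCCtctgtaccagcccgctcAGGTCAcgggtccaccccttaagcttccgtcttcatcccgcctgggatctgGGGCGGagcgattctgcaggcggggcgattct

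Both strands were searched for the GC box GGGCGG, the CCAAT box, the nuclear receptor half-site AGGTCA, the NRF1 core GCATGCGC and the amino acid response element core TGATGNAA, and no motif contains another, though neighbouring matches can overlap. A GC box was in the windows of Auh, Acadsb and Hibadh, and in 7 of the 9 windows read in all, against 32.7% of 32851 windows of all genes. Auh held 2 GC boxes, Acadsb 3 and Hibadh 2. Of the enzymes that did not pass, Hibch held 5, Acad8 3 and Hsd17b10 1, and Aldh6a1 held 0 in either window. A CCAAT box was in 5 of the 9 windows, Hibadh among them, against 33.8%. The half-site was in 2 of 9, those of Echs1 and 1 of Aldh6a1, against 14.0%, and the amino acid response element core in 1 of 9, Echs1, against 3.45%. The NRF1 core was in 0 of 9, against 2.26%. The window of Echs1 also held 2 GC boxes. GC content was 58.4% for Auh, 65.6% for Acadsb, 60.8% for Hibadh and 62.8% for Echs1.

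Genes around the 9 enzymes came from lists written from general knowledge. Counts are with limma for Mut-/- against Mut+/+ kidneys, to be read against the 6.69% fallen and 2.96% risen of all genes. On the leucine route around Auh, 2 of 3 measured genes fell and 0 rose, with a median difference of -0.42. Mccc1, a subunit of the carboxylase just before Auh, was at 9.96, 9.81, 9.51 and 9.70 in Mut-/- kidneys, against 10.24, 10.46, 10.25 and 10.36 in Mut+/+ kidneys (difference -0.58, SE 0.10, adjusted p = 0.00292). Ivd, the isovaleryl-CoA dehydrogenase before it, was at 10.94, 10.91, 10.88 and 10.95 in Mut-/- kidneys, against 11.28, 11.40, 11.33 and 11.35 in Mut+/+ kidneys (difference -0.42, SE 0.06, adjusted p = 0.000719). For both genes all Mut-/- arrays lay below all Mut+/+ arrays, and without Mut-/- replicate 3 Mccc1 differed by -0.50 (adjusted p = 0.00555). Mccc2, the other carboxylase subunit, had a difference of -0.29 (adjusted p = 0.0616).

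Upstream of all 3 routes, 3 of 9 genes of transamination and the ketoacid dehydrogenase complex fell and 0 rose (median difference -0.13). Dbt, the transacylase core of the complex, was 1.23-fold lower (adjusted p = 0.00512), and the cytosolic aminotransferase Bcat1 1.45-fold (adjusted p = 0.0398). Dld, the lipoamide dehydrogenase of the complex, had a log2 difference of -0.26 (adjusted p = 0.0188). Bcat1 lost its call when any of 7 arrays was left out, Mut-/- replicate 3 among them (adjusted p up to 0.109), and Dld when any of 3 was (adjusted p up to 0.065). Against Mut+/- kidneys Dld differed by only -0.056 (adjusted p = 0.764), Bcat1 by -0.36 (adjusted p = 0.252) and Dbt by -0.26 (adjusted p = 0.0219). In Mut+/- against Mut+/+ kidneys Dld had -0.20 (adjusted p = 0.243), Bcat1 -0.17 (adjusted p = 0.697) and Dbt -0.031 (adjusted p = 0.873). Downstream, from propionyl-CoA to the mutase, 2 of 5 genes fell and 1 rose. The propionyl-CoA carboxylase subunits went opposite ways, Pcca 1.15-fold lower (adjusted p = 0.0175) and Pccb 1.15-fold higher (adjusted p = 0.0311), and the epimerase Mcee was 1.16-fold lower (adjusted p = 0.0166). Pcca lost its call without Mut+/+ replicate 4 (adjusted p = 0.0614), Pccb when any of 5 arrays was left out (up to 0.0831) and Mcee without Mut+/+ replicate 2 or 4 (up to 0.0525). Pccb was alike in Mut-/- and Mut+/- kidneys (difference 0.0089, adjusted p = 0.971), and Mut+/- against Mut+/+ was 0.19 (adjusted p = 0.205). In the same order Mcee had -0.067 (adjusted p = 0.591) and -0.14 (adjusted p = 0.29), and Pcca -0.17 (adjusted p = 0.089) and -0.037 (adjusted p = 0.816).

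Around Acat1, 1 of 7 measured genes of ketone body synthesis, use and transport fell and 1 rose (median difference -0.078). Oxct1, which activates acetoacetate for use and so precedes Acat1 in ketone body breakdown, was at 10.81, 10.69, 10.23 and 10.74 in Mut-/- kidneys, against 11.11, 11.13, 11.17 and 11.20 in Mut+/+ kidneys. The Mut-/- arrays were all lower, replicate 3 most (difference -0.54, SE 0.10, adjusted p = 0.00465, and -0.41 without replicate 3, adjusted p = 0.000562). Acat3, a relative of the cytosolic thiolase, was at 8.25, 8.35, 9.04 and 7.94 in Mut-/- kidneys, against 7.62, 7.80, 7.78 and 7.82 in Mut+/+ kidneys. Replicate 3 was its highest array, and the difference of 0.64 (adjusted p = 0.028) was 0.43 without it (adjusted p = 0.0148). Acat3 lost its call when any Mut+/+ array was left out (adjusted p up to 0.0644), and its signal may be shared with the near-identical Acat2.

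Relatives of the 9 enzymes in straight-chain fatty acid oxidation had 6 of 22 genes risen and 2 fallen (median difference 0.090). The long-chain acyl-CoA dehydrogenase gene Acadl was 1.39-fold higher (adjusted p = 0.00102), the isomerase gene Eci1 1.38-fold (adjusted p = 0.00165) and the peroxisomal thiolase gene Acaa1b 1.32-fold (adjusted p = 0.0471). Acaa1b lost its call when any of 9 arrays was left out (adjusted p up to 0.13). Beside Aldh6a1, which also serves thymine breakdown, 1 of 5 genes rose and 1 fell. Dpys, a dihydropyrimidinase, was 1.76-fold higher (adjusted p = 0.00465) and the aminotransferase Abat 1.35-fold lower (adjusted p = 0.000506). Of 12 relatives of Aldh6a1 1 rose, Aldh1a1, an enzyme of retinoic acid synthesis, 1.98-fold higher (adjusted p = 0.000237), and 0 fell. Of 3 partners of Hsd17b10 in mitochondrial tRNA processing Prorp, the catalytic subunit of RNase P, was 1.26-fold lower (adjusted p = 0.0105).

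**Figure D5:**
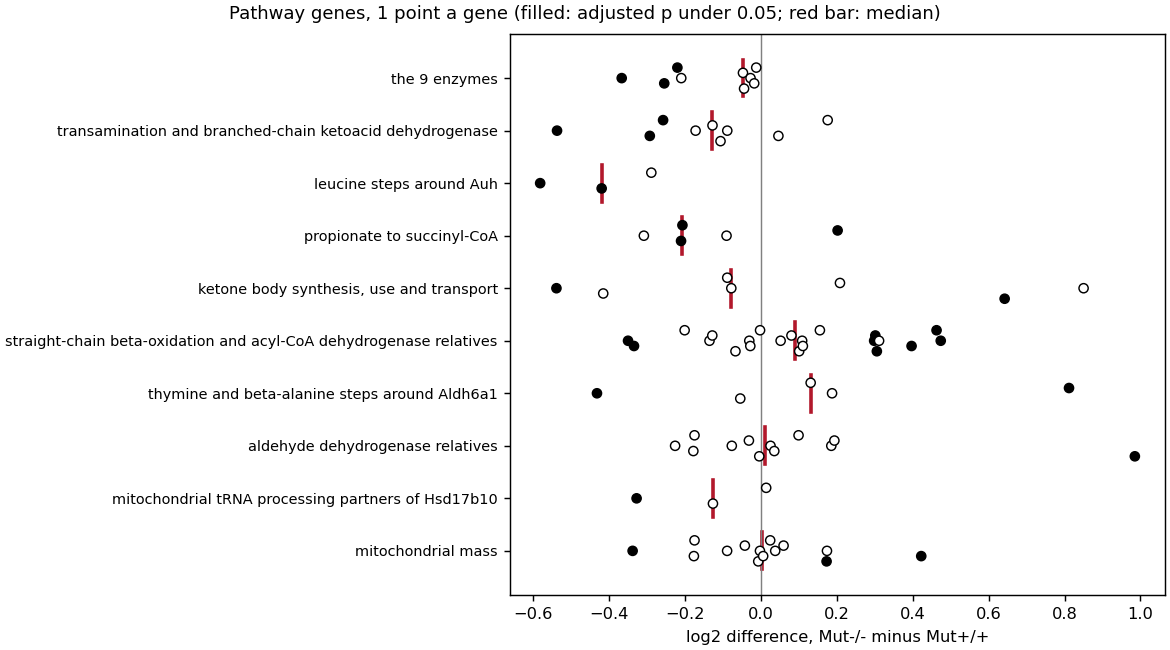
Log2 differences, Mut-/- minus Mut+/+, of the 9 enzymes and of the genes around them, 1 point a gene. Filled points passed at an adjusted p under 0.05 and red bars are list medians, from -0.42 for the leucine steps to 0.13 for the thymine and beta-alanine steps.

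In Mut-/- against Mut+/- kidneys, where 1.46% of all genes fell and 1.07% rose, the leucine list had 2 of 3 fallen, again Mccc1 and Ivd, the transamination list 1 of 9, Dbt, the ketone body list 2 of 7, Oxct1 and Aacs, and the fatty acid oxidation list 3 of 22 risen. Of the thymine and beta-alanine list 1 of 5 fell, Abat (difference -0.34, adjusted p = 0.00576), and of the relatives of Aldh6a1 1 of 12 rose, Aldh1a1 (difference 0.998, adjusted p = 0.00086). General mitochondrial genes had 2 of 14 risen, Tomm20 and Cox4i1, and the propionate and tRNA processing lists had 0 called. Aacs, the acetoacetyl-CoA synthetase gene, did not pass in that comparison without Mut-/- replicate 3 (adjusted p = 0.089). No gene of these lists passed in Mut+/- against Mut+/+ kidneys in the fit of all arrays. Without Mut-/- replicate 3, which also enters the shared variance, Dpys did, with a difference of 0.52 (adjusted p = 0.0481).

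The genes whose centred log2 profile over the 12 arrays lay closest to that of Auh were Echdc3, Rnf43 and Snap29. Their root mean square differences from it were 0.044, 0.045 and 0.051, where the profile of Auh itself has a root mean square of 0.16 about its mean. Echdc3, of the enoyl-CoA hydratase family that includes Auh and Echs1, was 8.05, 8.13, 7.87 and 7.94 in Mut-/- kidneys, against 8.34, 8.26, 8.40 and 8.40 in Mut+/+ kidneys. Rnf43, a ubiquitin ligase that acts on Wnt receptors, ran from 7.89 to 8.03 in Mut-/- kidneys and from 8.28 to 8.38 in Mut+/+ kidneys, and Snap29, a membrane fusion protein, from 8.98 to 9.19 in Mut-/- kidneys and from 9.26 to 9.54 in Mut+/+ kidneys. All 3 were selected for this likeness, so their levels are a description.

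Markers of other compartments moved in the same comparison. General mitochondrial genes had 2 of 14 risen and 1 fallen, with a median difference of 0.0015: Timm23 and Cox4i1 rose and Ppargc1a fell. Proximal tubule S1 and S2 markers had 1 of 14 fallen, and their mean over genes ran from 11.69 to 12.09 in Mut-/- arrays and from 12.02 to 12.10 in Mut+/+ arrays. S3 markers had 5 of 11 fallen, with means from 10.22 to 10.88 in Mut-/- arrays and from 10.99 to 11.06 in Mut+/+ arrays. In both of these lists the lowest mean was that of Mut-/- replicate 3, the array with high adrenal cortex markers. Fallen markers numbered 4 of 8 for distal tubule, 4 of 10 for endothelium, 3 of 7 for intercalated cells and 3 of 5 for podocytes. They numbered 2 of 8 for stroma and smooth muscle and 0 of 7 for thick ascending limb, and 0 rose in any of these lists. The 2 of stroma and smooth muscle were Acta2 and Myh11. Its collagen genes Col1a1, Col1a2 and Col3a1 did not pass. They lay above every Mut+/+ array on Mut-/- replicates 2 and 4, and below every Mut+/+ array on Mut-/- replicate 1. Leukocyte markers had 2 of 9 risen and 1 fallen, principal cell markers 1 of 7 risen, and adipocyte and adrenal markers 0 of 6 each. Without Mut-/- replicate 3, fallen markers numbered 4 for S3, 3 for distal tubule, 3 for endothelium and 2 for intercalated cells, with 1 risen for S3 and 1 for intercalated cells, fallen transamination genes 2, and risen general mitochondrial genes and leukocyte markers 1 each. Adipocyte means ran from 6.80, on Mut-/- replicate 3, to 7.52 in Mut-/- arrays and from 7.06 to 8.24 in Mut+/+ arrays. The part of these shifts in the fall of Auh, Acadsb and Hibadh was not tested.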

How the data were processed

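Whole-kidney RNA was measured on 12 Affymetrix mouse gene arrays, 4 for each genotype, grouped by sample title. The authors deposited log2 values for each probe set, which, per the submitters' processing notes, come from RMA and Affymetrix Expression Console 1.2.1. The labels name the mouse array in the descriptions and a human one in the labelling text, and the probe sets match the mouse annotation. RMA equalises the arrays and compresses differences near background. The 35552 probe sets had 0 missing values. Of those annotated, 21785 had 1 symbol, which gave 19934 genes, each read from its brightest probe set. The sources used here name no genome build.

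Differences were fitted with limma 3.58.1 in R 4.3.3 (lmFit and eBayes, all 12 arrays, 9 residual and 4.408 prior degrees of freedom), with Benjamini-Hochberg adjustment over all 19934 genes. Genes under an adjusted p of 0.05 are said to rise or fall. The fit was tested on simulated data. Intervals are at 95%, and precision is limited by having 4 arrays a group.

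The members, gene lists and tests were chosen with earlier results of these data known. Named were the members, up to 3 called genes a list by size, and the 3 genes with the smallest root mean square difference from the called member with the largest change and a group mean of at least 6. Mccc2, Tomm20, Timm23, Cox4i1, Ppargc1a, Aacs and the marker genes named were added after their values were seen. Alternatives left out each array, added the replicate number as a block, filtered low genes, averaged probe sets, changed normalisation, weights or variance prior, or fitted 2 groups. List counts without Mut-/- replicate 3 and the consecutive steps were added after the data had been seen.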

Additional observations from a re-analysis of the deposited data

Results flagged for a closer look

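Samples far from the other 3 of their group were looked for in each gene and group, where chance marks about 1 in 20 groups. Of 27 combinations of the 9 enzymes and 3 genotypes, 3 stood out. Acat1 was 11.27 on Mut-/- replicate 1, against 11.07 to 11.10 on the other Mut-/- arrays. Aldh6a1 was 11.957 on Mut-/- replicate 2, against 11.986 to 11.990, and Acad8 was 9.504 on Mut-/- replicate 4, against 9.479 to 9.483. The last 2 lie in very tight groups, so the gaps are under 0.03 log2 units.

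All 6 adrenal cortex markers stood out on Mut-/- replicate 3. Their log2 levels there were 12.65 for Cyp11b1, 11.99 for Star, 11.27 for Cyp21a1, 10.61 for Cyp11a1, 8.70 for Cyp11b2 and 8.06 for Hsd3b1. The other Mut-/- arrays reached at most 6.91 for any of them. The calls of Auh, Acadsb and Hibadh against wild type held without that array, while the call of Auh against heterozygotes did not.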

How the results depend on the processing

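Over 20 alternatives, Auh and Acadsb kept their call against Mut+/+, with log2 differences from -0.39 to -0.33 and from -0.30 to -0.23. Hibadh lost it without Mut+/+ replicate 4 and turned to 0.0126 with the mean of its probe sets, since its second probe set, near the low end of the array, then counts as much as the first. Leaving out single arrays gave 2 to 4 called members against Mut+/+ and 0 or 1 in Mut-/- against Mut+/-. In Mut-/- against Mut+/-, 0 were called with the replicate block, median centring or only the 2 groups compared, 2 with array weights (Auh and Acadsb) and 3 with quantile normalisation (Auh, Acadsb and Hibadh). The count over all genes moved with these settings too: 405, 404, 191, 561 and 668 in that order, beside 506 as reported. No alternative called a member in Mut+/- against Mut+/+.

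Counts over all genes were 1925, 506 and 27 in the order Mut-/- against Mut+/+, Mut-/- against Mut+/- and Mut+/- against Mut+/+. They ran from 1019 to 1928, 229 to 592 and 5 to 67 when single arrays were left out, and were 1154, 191 and 78 with only the 2 groups compared. Those of Mut-/- against Mut+/+ moved by over 1.5 times without Mut+/+ replicate 2 (1125) or 4 (1019), those of Mut-/- against Mut+/- without any Mut+/- array, and those of Mut+/- against Mut+/+ without any of 8 arrays. For Mut+/- against Mut+/+ the count was 7 with the replicate block, 163 with array weights and 42 with a trended and robust prior. The replicate numbers showed no sign of pairing the mice: correlations of same-numbered deviations ran from -0.24 to 0.17. Of 12 comparisons 1 had its own number best among 4 arrays. A shared litter or day of work was not tested. Differences this small rest on 4 arrays a group.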

Other observations

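In RefSeq gene order on GRCm38.p6, the measured protein-coding genes on either side of Hibch are Inpp1 and 1700019D03Rik. Inpp1 had a difference of -0.04 for Mut-/- against Mut+/+ (adjusted p = 0.744). 1700019D03Rik is 1 of the 27 genes called between Mut+/- and Mut+/+ kidneys and was picked after its values were seen. Its log2 levels were 5.15, 5.22, 5.34 and 5.29 in Mut-/- kidneys, 5.30, 5.52, 5.30 and 5.43 in Mut+/- kidneys and 5.82, 5.75, 6.02 and 5.87 in Mut+/+ kidneys, low on the array. The difference was -0.62 for Mut-/- against Mut+/+ (adjusted p = 0.000269) and -0.48 for Mut+/- against Mut+/+ (adjusted p = 0.0215). Of the 10 nearest genes to Hibch 2 were called in Mut-/- against Mut+/+, 1700019D03Rik and Mfsd6 (-0.35, adjusted p = 0.0013), and 1 in Mut+/- against Mut+/+. For the other 8 enzymes these counts were 0 or 1 and 0. Of all 19934 genes, 1925 were called in Mut-/- against Mut+/+ and 27 in Mut+/- against Mut+/+. Hibch itself had -0.09 for Mut+/- against Mut+/+ (adjusted p = 0.728).

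Hibadh lies between 2 genes that were shifted in both genotypes, also picked after their values were seen. Ggct lies 16 measured genes of any type away on one side, and Npy 28 away on the other. Ggct, of the glutathione cycle, had a difference of -0.86 in Mut-/- kidneys (adjusted p = 0.000662) and -0.80 in Mut+/- kidneys (adjusted p = 0.021), each against Mut+/+. The neuropeptide gene Npy had a difference of 0.81 in Mut-/- kidneys (adjusted p = 0.000332) and 0.87 in Mut+/- kidneys (adjusted p = 0.00248). Hibadh had -0.07 in Mut+/- against Mut+/+ (adjusted p = 0.604). Of the 10 protein-coding genes measured nearest to Hibadh 1 was called in Mut-/- against Mut+/+, beside 1925 of all 19934 genes. In Mut+/- against Mut+/+ 0 of these 10 were called, beside 27 of all genes. Genes called in heterozygotes lay on the chromosomes of other members too, such as Chrdl1 on that of Hsd17b10 (-1.21 in Mut-/- kidneys, adjusted p = 9.67e-06, and -0.52 in Mut+/- kidneys, adjusted p = 0.0392, each against Mut+/+) and Churc1 on that of Aldh6a1 (-0.40, adjusted p = 0.0101, and -0.51, adjusted p = 0.0392, in the same order). Whether these positions bear on the values of Hibch and Hibadh was not tested.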
